A study of Homo sapiens with 16 samples.

Results

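The genes described here are 10 that encode KMT2A (also called MLL) and proteins that bind it or are fused to it in acute leukaemia: KMT2A, MEN1, PSIP1, DOT1L, MLLT10, MLLT1, MLLT3, AFF1, AFF4 and ELL. They were taken by symbol from a table of 60669 genes, and all 10 were among the 16555 with enough reads to test. RNA came from the human cell line MOLM-13, grown from an acute myeloid leukaemia, after 4 days under 1 of 4 conditions, with 4 libraries each. The conditions were an inhibitor of EZH2, the histone H3 lysine 27 methyltransferase, at 1 µM (EZH2i), an inhibitor of PRMT5, an arginine methyltransferase, at 1 µM (PRMT5i), both together (the combination), and 0.005% DMSO. The labels name neither compound and do not say whether replicates were separate cultures, so p-values measure only the spread between these libraries, which may be technical. All groups come from 1 cell line, and the fusion gene it carries is present in the DMSO cells too.

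KMT2A methylates lysine 4 of histone H3 at promoters, and menin (MEN1) and LEDGF (PSIP1) tether it to chromatin. Leukaemic fusions join the amino-terminal part of KMT2A to a partner, and the common partners work in transcription elongation: MLLT3 (AF9) and MLLT1 (ENL) read acylated histones, AFF1 (AF4) and AFF4 are scaffolds of the super elongation complex, ELL is an elongation factor for RNA polymerase II, and MLLT10 (AF10) works with DOT1L, the methyltransferase of lysine 79 of histone H3. MOLM-13 is known for a KMT2A-MLLT3 fusion. Counts per gene do not separate reads of the fusion transcript from those of the normal KMT2A and MLLT3 transcripts.

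Promoters are shown for the 3 members that passed the test with PRMT5i against DMSO: AFF1 and AFF4, which rose, and PSIP1, which fell. Each is the 250 bases before the RefSeq start nearest to the gene's start in GENCODE release 29, read 5′ to 3′ on the gene's strand, with matches to the motifs named below in capitals.
AFF1 (chr4:86934761-86935010, GRCh38.p14, plus strand): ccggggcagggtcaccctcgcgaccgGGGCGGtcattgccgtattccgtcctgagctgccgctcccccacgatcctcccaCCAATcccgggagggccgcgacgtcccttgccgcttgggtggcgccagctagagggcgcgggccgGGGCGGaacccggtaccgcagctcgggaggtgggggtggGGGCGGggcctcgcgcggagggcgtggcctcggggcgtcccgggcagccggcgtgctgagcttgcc
AFF4 (chr5:132963635-132963884, GRCh38.p14, minus strand): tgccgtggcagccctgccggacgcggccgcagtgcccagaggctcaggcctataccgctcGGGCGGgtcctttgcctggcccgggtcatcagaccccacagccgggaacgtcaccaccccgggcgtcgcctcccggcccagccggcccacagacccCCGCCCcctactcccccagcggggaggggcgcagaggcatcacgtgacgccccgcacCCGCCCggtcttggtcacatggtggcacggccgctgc
PSIP1 (chr9:15510971-15511220, GRCh38.p14, minus strand): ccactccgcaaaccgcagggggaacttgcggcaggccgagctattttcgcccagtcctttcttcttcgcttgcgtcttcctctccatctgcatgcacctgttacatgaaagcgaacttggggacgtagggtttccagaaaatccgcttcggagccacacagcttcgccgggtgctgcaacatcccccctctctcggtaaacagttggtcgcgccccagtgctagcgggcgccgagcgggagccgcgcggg
RefSeq promoters were matched for 9 of the 10 members, DOT1L being the other. Motifs were searched on both strands. The SP/KLF letters GGGCGG were in 7 of the 9 windows, with 3 matches each in AFF1 and AFF4, and in 42.6% of all 35116 promoters in the table. The CCAAT box was in 5 of the 9, AFF1 among them, and in 32.0% of all. The ETS letters CCGGAAG were in 0 of the 9 and in 8.52% of all. Either of the E2F forms TTTGGCGC and TTTCCCGC was in 0 of the 9 and in 1.93% of all. The PSIP1 window held none of these letters, and no matches overlapped in the AFF1 and AFF4 windows. These results depend on the RefSeq start used. Another PSIP1 start, 661 bases from the GENCODE start, has 1 SP/KLF match in its window. Another AFF1 start, 72269 bases away, has 0 SP/KLF matches and 1 CCAAT box. The nearest starts of MEN1 and MLLT10 lie 608 and 9081 bases from the GENCODE start. Another MEN1 start, 743 bases away, has 2 SP/KLF matches, where the nearest has 0. Another MLLT10 start, 9557 bases away, has 0 CCAAT boxes, where the nearest has 1. GC content was 76.8% for AFF1, 75.2% for AFF4 and 61.6% for PSIP1, against a median of 58.0% over all promoters.

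Libraries held 31.1 to 52.9 M expected counts, and no member had fewer than 299 in any library. All 10 myeloid markers listed, among them LYZ, CD33 and SPI1, were expressed. Their summed level was 1670 to 1840 CPM with EZH2i, 2570 to 2830 CPM with PRMT5i, 2290 to 2430 CPM in the combination and 1770 to 2000 CPM with DMSO, where CPM is a count scaled so that each library has the same total. In any library, 6 B cell markers summed to at most 1.93 CPM and 7 epithelial and fibroblast markers to at most 3.67 CPM with CDH1 and KRT14 at 0. The 8 T and NK cell markers summed to 21.0 to 36.0 CPM, mostly NKG7, with CD2 at 0. The summed level of the myeloid markers was higher in every PRMT5i and combination library than in any DMSO library, as the levels of AFF1 and AFF4 were. The largest parts of that sum were FLT3 and LYZ, averaging 755 and 728 CPM over the 16 libraries, so it does not give the direction of each marker. The part of the markers in the results on AFF1 and AFF4 was not tested. In bulk RNA, fewer cells of a type and less RNA per cell cannot be told apart.

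The DMSO libraries differed among themselves most widely in 3 members. The deviation of each library from the mean of the other 3 was set against the GC content of the longest transcript over 16427 genes. As a description over genes, Spearman's rho was −0.453 in DMSO replicate 1 and 0.569 in DMSO replicate 2, and in the EZH2i group 0.631 in replicate 1 and −0.624 in replicate 4. By GC content the members fall into 6 from 38.2% (MLLT3) to 46.9% (KMT2A) and 4 from 58.9% (MEN1) to 63.4% (MLLT1), about a median of 48.5% for tested genes. On the log2 scale DOT1L deviated by −1.44 in DMSO replicate 1 and 1.27 in replicate 2, MEN1 by −1.27 and 1.02, and MLLT1 by −1.12 and 0.93. ELL, also GC-rich, deviated by −0.29 and 0.23. The members called with EZH2i deviated too, KMT2A by −0.56 and 0.30 and AFF1 by −0.41 and 0.21. The coefficient of variation over the DMSO libraries was 54.6% for DOT1L, 45.6% for MEN1, 41.3% for MLLT1, and 4.16% to 18.2% for the other 7 members. The part of GC content in the results on these genes was not tested, and values without DMSO replicates 1 and 2 are given beside them where a call changes.

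**Figure D1:**
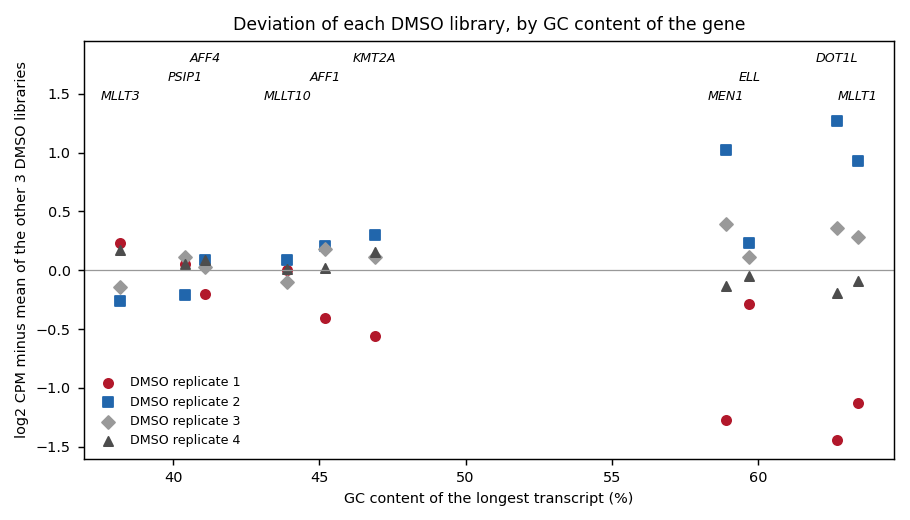
Deviation of each member from the mean of the other 3 DMSO libraries (y axis, log2 CPM) against the GC content of its longest transcript (x axis, percent), by DMSO library. DOT1L, MEN1 and MLLT1 deviate by −1.44, −1.27 and −1.12 in replicate 1 and by 1.27, 1.02 and 0.93 in replicate 2.

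Levels below are CPM with library sizes scaled by the trimmed mean of M values, in replicate order, and means are given ± SD with n = 4 per group. Differences between groups are log2 fold changes with their standard error (SE). Adjusted p-values come from edgeR's quasi-likelihood test with Benjamini-Hochberg adjustment over all 16555 genes, and a gene is said to rise or fall where this is under 0.05.

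**Figure D2:**
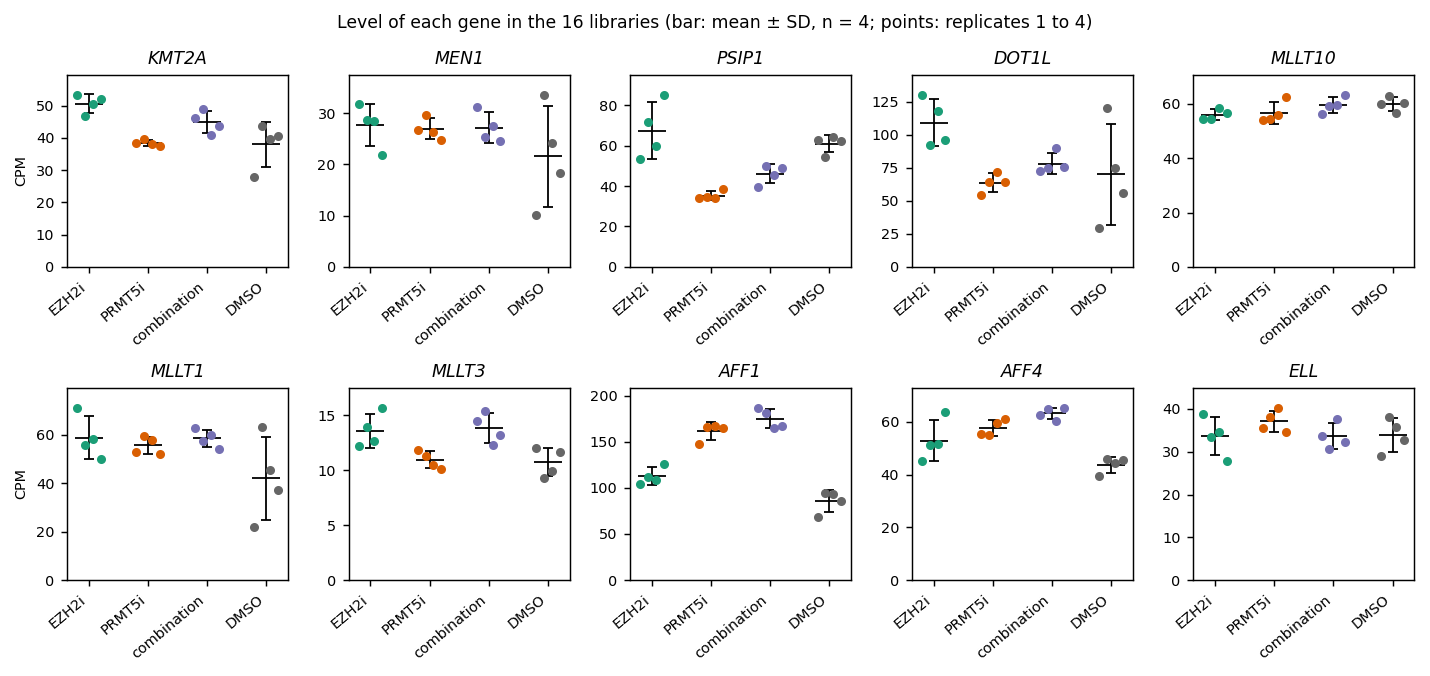
CPM of each of the 10 genes (y axes from 0) in the 4 libraries of each condition, with the mean and SD. PRMT5i and combination libraries lie above all DMSO libraries for AFF1 and AFF4 and below them for PSIP1, and the DMSO libraries of DOT1L, MEN1 and MLLT1 are spread widely.

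Of the 3 genes of the KMT2A, menin and LEDGF assembly, PSIP1 fell with PRMT5i and KMT2A rose with EZH2i. PSIP1 (ENSG00000164985.14; chromosome 9, 15464066 to 15511019, minus strand) encodes LEDGF, which binds methylated lysine 36 of histone H3. It had 53.5, 71.7, 59.7 and 85.1 CPM with EZH2i, 34.0, 34.7, 34.2 and 38.5 CPM with PRMT5i, 39.6, 50.0, 45.5 and 49.2 CPM in the combination, and 62.7, 54.6, 64.6 and 62.6 CPM with DMSO. PRMT5i and combination libraries lay below every DMSO library, while EZH2i libraries overlapped them. PSIP1 fell by 0.79 on the log2 scale with PRMT5i against DMSO (SE 0.12, adjusted p = 0.000100), averaging 35.3 ± 2.15 CPM with PRMT5i and 61.1 ± 4.45 CPM with DMSO. In the combination it fell by 0.41 against DMSO (SE 0.12, adjusted p = 0.0165) and by 0.55 against EZH2i (SE 0.12, adjusted p = 0.00311). The call for the combination against DMSO was lost without combination replicate 1 (−0.34, adjusted p = 0.0590) and with libraries scaled to total counts only (−0.28, adjusted p = 0.1). Combination libraries, averaging 46.1 ± 4.73 CPM, lay above all PRMT5i libraries, and this difference of 0.38 did not pass (SE 0.12, adjusted p = 0.103). It passed with total counts only (adjusted p = 0.0445), in a fit of these 2 groups alone (0.00810) and without EZH2i replicate 4 (0.0449).

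KMT2A (ENSG00000118058.20; chromosome 11, 118436464 to 118526832, plus strand), the histone H3 lysine 4 methyltransferase, had 53.3, 46.8, 50.6 and 52.1 CPM with EZH2i, 38.5, 39.8, 38.0 and 37.4 CPM with PRMT5i, 46.1, 49.1, 40.9 and 43.6 CPM in the combination, and 27.9, 43.8, 39.7 and 40.6 CPM with DMSO. Every EZH2i library lay above every DMSO library, and every combination library above every PRMT5i library. KMT2A rose by 0.41 with EZH2i (SE 0.11, adjusted p = 0.0338), averaging 50.7 ± 2.83 CPM with EZH2i and 38.0 ± 6.92 CPM with DMSO. Its difference with PRMT5i was 0.02 (95% interval −0.22 to 0.25, adjusted p = 0.921). The combination differed by 0.24 from DMSO (SE 0.11, adjusted p = 0.102) and by 0.22 from PRMT5i (SE 0.11, adjusted p = 0.349), and neither passed. The call with EZH2i was lost in a fit of EZH2i and DMSO libraries alone (0.42, adjusted p = 0.193) and with no filter on low counts (adjusted p = 0.0639). Leaving out any 1 of DMSO replicates 3 and 4 and EZH2i replicates 1, 3 and 4 also lost it, and the log2 fold change was 0.39 to 0.45 (adjusted p = 0.0600 to 0.0814). Without DMSO replicate 2 the combination passed as higher than DMSO (0.31, adjusted p = 0.0338), without DMSO replicate 1 as lower than EZH2i (−0.20, adjusted p = 0.0428; without DMSO replicates 1 and 2, adjusted p = 0.0353), and in a fit of 2 groups as higher than PRMT5i (0.22, adjusted p = 0.0381).

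MEN1 (ENSG00000133895.14; chromosome 11, 64803510 to 64811294, minus strand) encodes menin, which links KMT2A to LEDGF. It had 31.8, 28.7, 28.4 and 21.9 CPM with EZH2i, 26.7, 29.7, 26.4 and 24.8 CPM with PRMT5i, 31.2, 25.3, 27.5 and 24.6 CPM in the combination, and 10.1, 33.5, 24.2 and 18.4 CPM with DMSO. The DMSO libraries spanned a wider range than all treated libraries together. Its log2 fold changes with EZH2i, PRMT5i and both against DMSO were 0.36, 0.32 and 0.33 (SE 0.24) and none passed (adjusted p = 0.331, 0.315 and 0.287). Without DMSO replicate 2, its highest DMSO library, they were 0.65, 0.61 and 0.62 and all passed (adjusted p = 0.0267, 0.0244 and 0.0213), whereas without DMSO replicates 1 and 2 none did.

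The H3K79 methyltransferase gene DOT1L (ENSG00000104885.17; chromosome 19, 2164149 to 2232578, plus strand) had the widest spread of the members over the DMSO libraries. It had 130, 92.6, 118 and 95.8 CPM with EZH2i, 54.1, 64.5, 71.7 and 64.0 CPM with PRMT5i, 72.7, 75.1, 89.8 and 75.3 CPM in the combination, and 29.3, 120, 74.7 and 56.0 CPM with DMSO. Every treated group overlapped DMSO, while every combination library lay below every EZH2i library and above every PRMT5i library. EZH2i averaged 109 ± 17.7 CPM and DMSO 70.0 ± 38.2 CPM, a difference of 0.64 that did not pass (SE 0.27, adjusted p = 0.148). It passed without DMSO replicate 2 (1.03, adjusted p = 0.00429) and without DMSO replicates 1 and 2 (0.73, adjusted p = 0.00620). The combination differed from EZH2i by −0.48 (SE 0.27, adjusted p = 0.214), which passed without DMSO replicate 1 (−0.50, adjusted p = 0.0359), without DMSO replicates 1 and 2 (adjusted p = 0.00387) and in a fit of these 2 groups alone (−0.47, adjusted p = 0.0102). It differed from PRMT5i by 0.30 (SE 0.27, adjusted p = 0.694), which passed in a fit of these 2 groups alone (adjusted p = 0.0484).

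MLLT10 (ENSG00000078403.16; chromosome 10, 21524675 to 21743630, plus strand), whose product AF10 is a cofactor of DOT1L, had 54.3, 54.6, 58.4 and 56.8 CPM with EZH2i, 54.1, 54.3, 55.8 and 62.6 CPM with PRMT5i, 56.4, 59.2, 59.4 and 63.2 CPM in the combination, and 60.0, 62.9, 56.8 and 60.4 CPM with DMSO. All treated groups overlapped DMSO. Its log2 fold changes with EZH2i, PRMT5i and both were −0.10, −0.08 and −0.01 (SE 0.07), and their 95% intervals lay within −0.25 and 0.14. With total counts only the sign in the combination turned (0.11).

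MLLT1 and MLLT3 encode the YEATS domain readers ENL and AF9, and MLLT3, the fusion partner in MOLM-13, rose in the combination. MLLT3 (ENSG00000171843.15; chromosome 9, 20341665 to 20622543, minus strand) had 12.2, 13.9, 12.6 and 15.6 CPM with EZH2i, 11.8, 11.3, 10.5 and 10.1 CPM with PRMT5i, 14.5, 15.4, 12.3 and 13.2 CPM in the combination, and 12.0, 9.32, 9.92 and 11.6 CPM with DMSO. EZH2i libraries lay above all DMSO libraries, and combination libraries above all PRMT5i and all DMSO libraries. MLLT3 rose by 0.37 in the combination against DMSO (SE 0.11, adjusted p = 0.0135), averaging 13.9 ± 1.36 CPM in the combination and 10.7 ± 1.31 CPM with DMSO. That call was lost without combination replicate 2 (0.31, adjusted p = 0.0504) and without DMSO replicates 1 and 2 (0.33, adjusted p = 0.0515). EZH2i against DMSO gave 0.34 (SE 0.11, adjusted p = 0.0650) and the combination against PRMT5i 0.34 (SE 0.11, adjusted p = 0.0904), and neither passed in edgeR. In DESeq2 both passed (adjusted p = 0.0377 and 0.0497), as they did in edgeR with total counts only (0.0190 and 0.0254). With PRMT5i the difference was 0.02 (95% interval −0.20 to 0.25).

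MLLT1 (ENSG00000130382.8; chromosome 19, 6210379 to 6279948, minus strand) had 70.9, 55.8, 58.4 and 50.0 CPM with EZH2i, 53.0, 59.7, 57.7 and 52.2 CPM with PRMT5i, 62.7, 57.5, 59.8 and 54.0 CPM in the combination, and 21.8, 63.4, 45.4 and 37.4 CPM with DMSO. Each treated group overlapped DMSO, where replicate 2 was the highest library and replicate 1 the lowest. The means were 58.8 ± 8.82 CPM with EZH2i, 55.7 ± 3.64 CPM with PRMT5i, 58.5 ± 3.66 CPM in the combination and 42.0 ± 17.3 CPM with DMSO. Differences from DMSO of 0.49, 0.41 and 0.48 (SE 0.21) did not pass (adjusted p = 0.155, 0.148 and 0.0867). Without DMSO replicate 2 they were 0.75, 0.67 and 0.74 and passed (adjusted p = 0.00721, 0.00632 and 0.00323), and without DMSO replicates 1 and 2 they were 0.50, 0.40 and 0.47 and passed (adjusted p = 0.0141, 0.0172 and 0.00690).

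Both AFF scaffolds rose with PRMT5i and in the combination. AFF1 (ENSG00000172493.20; chromosome 4, 86935002 to 87141054, plus strand) had 104, 112, 108 and 126 CPM with EZH2i, 147, 166, 167 and 165 CPM with PRMT5i, 186, 181, 165 and 167 CPM in the combination, and 68.4, 94.4, 92.9 and 85.5 CPM with DMSO. EZH2i libraries lay above all DMSO libraries, and PRMT5i and combination libraries above all EZH2i libraries. AFF1 rose 1.89-fold with PRMT5i (log2 fold change 0.92, SE 0.10, adjusted p = 1.70e-06), averaging 161 ± 9.36 CPM with PRMT5i and 85.3 ± 11.9 CPM with DMSO. It rose 2.05-fold in the combination against DMSO (1.03, SE 0.10, adjusted p = 7.97e-07), and both of these calls held in every alternative run. In the combination against EZH2i it rose by 0.63 (SE 0.10, adjusted p = 0.000115). With EZH2i against DMSO it rose by 0.40 (SE 0.10, adjusted p = 0.0198), and the combination differed from PRMT5i by 0.12 (SE 0.10, adjusted p = 0.650). The difference between these effects of EZH2i, the interaction, was −0.28 and did not pass (SE 0.14, adjusted p = 0.552). The call with EZH2i was lost in a fit of EZH2i and DMSO libraries alone (0.41, adjusted p = 0.168), with no filter on low counts (adjusted p = 0.0502), without DMSO replicate 4 (0.0617) and without EZH2i replicate 4 (0.0519).

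AFF4 (ENSG00000072364.12; chromosome 5, 132875379 to 132963634, minus strand), the paralog of AFF1, had 45.1, 51.1, 51.7 and 63.8 CPM with EZH2i, 55.5, 55.1, 59.4 and 61.1 CPM with PRMT5i, 62.5, 64.8, 60.4 and 65.1 CPM in the combination, and 39.3, 45.8, 44.4 and 45.7 CPM with DMSO. PRMT5i and combination libraries lay above all DMSO libraries, and EZH2i libraries overlapped them. AFF4 rose by 0.40 with PRMT5i (SE 0.10, adjusted p = 0.00351) and by 0.53 in the combination (SE 0.10, adjusted p = 0.000402) against DMSO. With EZH2i the difference was 0.27 (SE 0.10, adjusted p = 0.0867), which passed in DESeq2 (adjusted p = 0.0450), without DMSO replicate 2 (0.0428) and without EZH2i replicate 1 (0.0469). The combination differed from EZH2i by 0.26 (SE 0.10, adjusted p = 0.0552), which passed in DESeq2 (adjusted p = 0.0273), without DMSO replicate 2 (0.0487) and without EZH2i replicate 4 (0.36, adjusted p = 0.00436).

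ELL (ENSG00000105656.12; chromosome 19, 18442663 to 18522127, minus strand), which raises the rate of elongation by RNA polymerase II and is itself a fusion partner, had 38.7, 33.4, 34.7 and 27.9 CPM with EZH2i, 35.6, 38.1, 40.1 and 34.7 CPM with PRMT5i, 33.7, 30.7, 37.7 and 32.3 CPM in the combination, and 29.0, 38.1, 35.7 and 32.8 CPM with DMSO. All treated groups overlapped DMSO, and no comparison passed. The log2 fold changes with EZH2i, PRMT5i and both were −0.01, 0.13 and −0.01 (SE 0.11), with 95% intervals within −0.25 and 0.36. With total counts only the signs with EZH2i (0.08) and in the combination (0.10) turned.

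Some of these levels carry counting limits. In GENCODE release 29, AP001267.5 on the same strand covers 17.9% of the exon bases of KMT2A. Single genes on the opposite strand cover 9.60% of those of ELL, 6.78% of DOT1L and 2.07% of PSIP1. These are the largest overlaps with 1 gene, and KMT2A and DOT1L each overlap 2 genes. Whether reads were counted by strand, and with which annotation, is not stated. How far overlaps on the opposite strand affect these levels is therefore not known. The overlap of KMT2A is on its own strand, and its expected counts were whole in all 16 libraries. The other 6 members share no exon base with another gene. Expected counts were not whole in 16 libraries for DOT1L, 9 for PSIP1 and 1 for ELL, which happens where reads that match several genes are divided between them.

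Counted over comparisons, 2 of the 10 members passed with EZH2i against DMSO, both higher, where 7.60% of all tested genes passed, 4.11% higher and 3.49% lower. Without DMSO replicate 2 this share was 27.2% and 6 members passed, and without DMSO replicate 4 it was 2.97% and 0 passed. With PRMT5i against DMSO 2 rose and 1 fell, where 35.3% of all genes passed, 17.1% higher and 18.3% lower. In the combination against DMSO 3 rose and 1 fell, where 36.2% of all genes passed, 17.6% higher and 18.5% lower. The last 2 counts are near the share among all genes, and both calls with EZH2i were lost under some alternatives, as given above. In the combination against EZH2i 1 rose and 1 fell (28.0% of all genes, 13.4% higher and 14.6% lower). In the combination against PRMT5i 0 passed in edgeR (4.16% of all genes, 1.57% without PRMT5i replicate 3), with 2 members at an unadjusted p under 0.05 and 1 in DESeq2. The interaction passed in 0 members in edgeR (0.290% of all genes), with 0 at an unadjusted p under 0.05 and 0 in DESeq2. The median log2 fold change of the members against DMSO was 0.35 for EZH2i, 0.08 for PRMT5i and 0.29 for the combination, where all genes had medians of −0.01, 0.00 and 0.00. Those of the members moved when 1 of the first 2 DMSO libraries was left out. They were 0.26, 0.06 and 0.10 without DMSO replicate 1 and 0.37, 0.22 and 0.43 without DMSO replicate 2. Without both of these libraries they were 0.33, 0.04 and 0.27. These 3 comparisons share the DMSO libraries. Every EZH2i library lay above every DMSO library in 3 members, KMT2A, MLLT3 and AFF1, and in 5.48% of all genes. Every combination library lay above every PRMT5i library in 4 members, KMT2A, PSIP1, DOT1L and MLLT3, and in 10.2% of all genes.

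**Figure D3:**
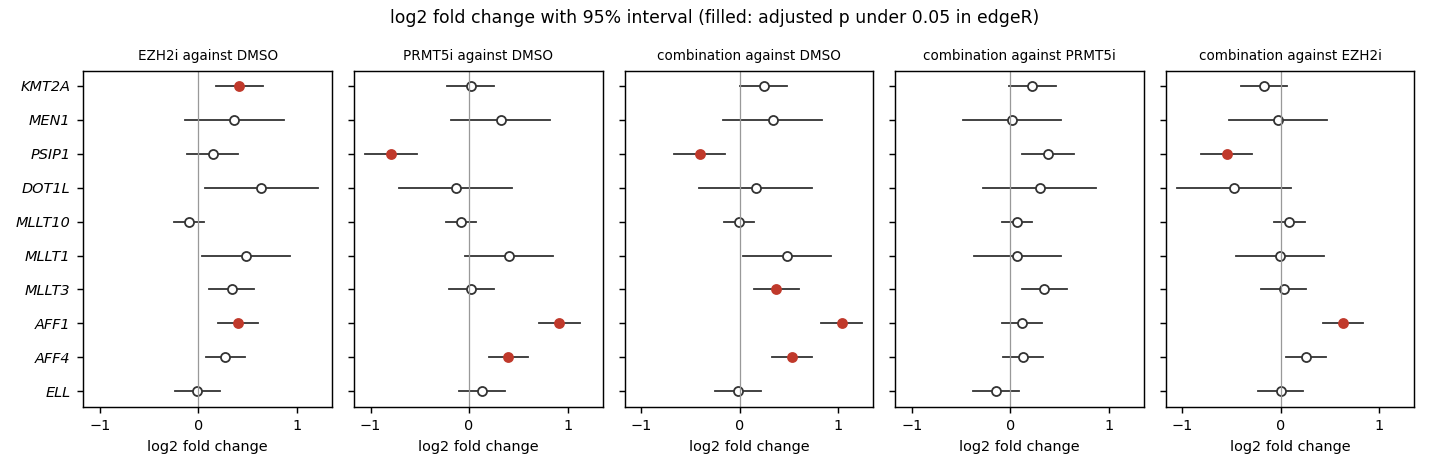
log2 fold change (x axis) of each gene in 5 comparisons, with 95% intervals from edgeR and filled points where the adjusted p was under 0.05. AFF1 is filled in all panels but the combination against PRMT5i, and PSIP1 lies left of 0 with PRMT5i (−0.79), in the combination against DMSO (−0.41) and in the combination against EZH2i (−0.55).

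The rises of AFF1 and AFF4 and the fall of PSIP1 with PRMT5i had like sizes in the pairs of replicates taken alone, with 2 libraries a group. AFF1 differed by 0.94 in replicates 1 and 2 and 0.89 in replicates 3 and 4, and passed in each. AFF4 differed by 0.38 (adjusted p = 0.163) and 0.42 (adjusted p = 0.0163). PSIP1 differed by −0.77 (adjusted p = 0.0566) and −0.81 (adjusted p = 0.00294). In the combination against DMSO, MLLT3 differed by 0.48 (adjusted p = 0.134) and 0.24 (adjusted p = 0.188), and PSIP1 by −0.39 (adjusted p = 0.266) and −0.42 (adjusted p = 0.0584), so neither of these calls held in either pair.

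Levels of different genes were compared per kb of exon in GENCODE release 29. With DMSO the order of mean CPM per kb was PSIP1 at 9.03 ± 0.657, MLLT1 at 8.86 ± 3.65, MLLT10 at 8.64 ± 0.361, AFF1 at 7.95 ± 1.11, ELL at 6.88 ± 0.795, DOT1L at 6.21 ± 3.39, MEN1 at 5.08 ± 2.32, AFF4 at 3.88 ± 0.271, MLLT3 at 1.32 ± 0.159 and KMT2A at 1.21 ± 0.222. Neighbours in this order overlapped over the 4 DMSO libraries, except that AFF4 lay above MLLT3 in all. AFF1 came first with PRMT5i (15.0 ± 0.888 CPM per kb) and in the combination (16.3 ± 0.963 CPM per kb), above MLLT1 in all libraries of each group. PSIP1 was at place 7 with PRMT5i (5.22 ± 0.313 CPM per kb). Part of the order depends on the length used: divided by the longest transcript, PSIP1 had 10.4 CPM per kb with PRMT5i, at place 4, and 18.0 CPM per kb with DMSO. AFF1 was first with PRMT5i and in the combination by either length, and KMT2A and MLLT3 were the lowest of the 10 members in every group by either length.

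**Figure D4:**
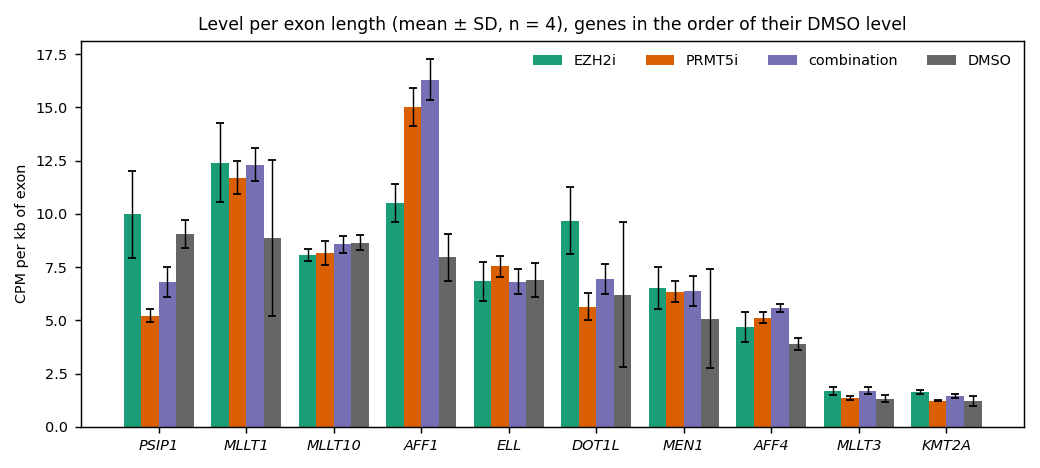
Mean CPM per kb of exon (with SD, n = 4) of each gene under the 4 conditions. AFF1 stands at 15.0 with PRMT5i and 16.3 in the combination, against 7.95 with DMSO, and MLLT3 and KMT2A are the lowest in each condition.

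Other genes of the same machinery were taken from lists by function, and their counts are to be read against the shares of all tested genes. Of all genes 17.1% rose and 18.3% fell with PRMT5i against DMSO, and 17.6% rose and 18.5% fell in the combination. In either direction 40.6% and 42.1% passed without DMSO replicate 2, and 34.3% and 35.0% without DMSO replicate 1. Of 26 tested elongation factors, 11 rose and 2 fell with PRMT5i against DMSO (median log2 fold change 0.21). In a fit of these 2 groups alone 7 rose and 2 fell, where 31.0% of all genes passed. With replicates 1 and 2 only, 1 rose and 0 fell (8.58% of all genes), and without DMSO replicate 2, 12 rose and 3 fell. In the combination against DMSO 11 rose and 4 fell, where 6 rose and 3 fell in a fit of these 2 groups alone. AFF3, a further AFF family gene, rose by 1.22 with PRMT5i (adjusted p = 2.27e-05), averaging 82.3 ± 6.53 CPM with PRMT5i against 35.3 ± 10.7 CPM with DMSO. CDK9, the kinase of P-TEFb, rose by 0.68 (adjusted p = 0.00291), averaging 52.4 ± 7.83 CPM with PRMT5i against 32.7 ± 7.68 CPM with DMSO. SUPT5H, which encodes the elongation factor SPT5, rose by 0.61 (adjusted p = 0.00145), and NELFE, a subunit of the negative elongation factor, fell by 0.41 (adjusted p = 0.00415). The other NELF subunits did not fall: NELFCD rose by 0.65 (adjusted p = 0.00541), and NELFA and NELFB did not pass (adjusted p = 0.489 and 0.294). HEXIM1, an inhibitor of P-TEFb, rose by 0.67 (adjusted p = 0.0121), a call lost in a fit of 2 groups. These 4 genes were named after their values were seen. ELL2, the paralog of ELL, named after its values were seen, rose by 0.64 (adjusted p = 0.00996), averaging 3.31 ± 0.518 CPM with PRMT5i against 2.11 ± 0.270 CPM with DMSO, a call lost without PRMT5i replicate 2. AFF2, the fourth AFF family gene, had at most 6 counts in any library and was not tested.

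Of 18 other subunits and partners of KMT2 complexes, 3 rose and 1 fell with PRMT5i (median 0.13) and 3 rose and 1 fell in the combination against DMSO. When DMSO replicate 2 was left out, 6 rose and 1 fell with PRMT5i and 9 rose and 1 fell in the combination. When PRMT5i replicate 1 or 2 was left out, 1 rose and 1 fell with PRMT5i. When DMSO replicate 1 was left out, 1 rose and 3 fell with PRMT5i and 2 rose and 2 fell in the combination. Leaving out DMSO replicate 1 put the median with PRMT5i at 0.01, and leaving out DMSO replicate 2 put it at 0.23. With PRMT5i TASP1, the protease that cleaves KMT2A, rose by 0.30 (adjusted p = 0.00391). KAT8, a histone H4 acetyltransferase, fell by 0.44 (adjusted p = 0.000221), averaging 24.2 ± 0.423 CPM with PRMT5i against 32.9 ± 2.83 CPM with DMSO. DPY30 and KMT2C rose by 0.31 and 0.23, calls lost in 5 and 4 of 16 fits with 1 library left out, and MEMO1 shares 50.5% of the exon bases of DPY30.

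Of 11 genes in a list for H3K79 methylation, H2B ubiquitination and acyl reading, 1 rose and 3 fell with PRMT5i. Their median was −0.02, or −0.17 without DMSO replicate 1 and 0.004 without DMSO replicate 2. In the combination against DMSO 2 rose and 2 fell. The list also held NPM1, KDM2B and CBX8, which are not genes of these functions, so its counts do not describe these functions alone. In the combination 2 passed without DMSO replicate 4, combination replicate 1 or combination replicate 4, and 1 without combination replicate 3. YEATS4, a YEATS domain reader like MLLT1 and MLLT3, fell by 0.93 with PRMT5i (adjusted p = 0.00192), averaging 28.3 ± 2.27 CPM with PRMT5i against 53.9 ± 19.3 CPM with DMSO. NPM1 fell by 0.44 and USP22, an H2B deubiquitinase, by 0.30, while RNF40, a subunit of the H2B ubiquitin ligase, rose by 0.43. The call of NPM1 was lost in a fit of 2 groups, that of USP22 with total counts only, and 34.0% of the exon bases of RNF40 lie under a gene of the other strand.

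Of 30 tested other fusion partners of KMT2A, 8 rose and 8 fell with PRMT5i (median 0.17, or 0.08 without DMSO replicate 1). Without DMSO replicate 1, 6 rose and 10 fell, and without DMSO replicate 2, 14 rose and 8 fell. GAS7, a gene of the actin cytoskeleton, rose by 0.89 with PRMT5i (adjusted p = 4.31e-06), averaging 187 ± 21.0 CPM with PRMT5i against 101 ± 7.98 CPM with DMSO, and LPP, a gene of focal adhesions, rose by 0.86 (adjusted p = 2.00e-05). CASC5 (KNL1), a kinetochore gene, fell by 1.16 (adjusted p = 1.10e-05), averaging 49.4 ± 6.22 CPM with PRMT5i against 110 ± 23.8 CPM with DMSO, and FOXO3, a forkhead transcription factor gene, fell by 0.44 (adjusted p = 4.83e-05). Of 20 tested genes known to be sustained by KMT2A fusions, 11 rose and 1 fell with PRMT5i (median 0.34). Among them HOXA5, HOXA10 and RUNX2 rose and BCL2 fell with PRMT5i, RUNX2 by 0.85 and HOXA10 by 0.59. Without PRMT5i replicate 2 or 4, 8 of the 20 rose and 1 fell (29.9% and 29.0% of all genes passed). Without DMSO replicates 1 and 2, 8 rose and 2 fell (median 0.24, 33.2% of all genes). With replicates 1 and 2 only, 3 rose and 0 fell (8.58% of all genes), and with total counts only 13 rose and 1 fell (33.7%). HOXA10 overlaps 2 genes, of which HOXA10-AS on the opposite strand covers the most, 16.4% of its exon bases.

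With EZH2i against DMSO few genes of these lists passed, and how many turned on single libraries. Of the elongation factors SUPT4H1 (log2 fold change −0.34, adjusted p = 0.0171) passed, of the KMT2 subunits and partners KMT2C (log2 fold change 0.32, adjusted p = 0.0232), and of the H3K79 and H2B genes YEATS2 (log2 fold change 0.37, adjusted p = 0.0428), with 6 of the fusion partners and 4 of the genes sustained by KMT2A fusions, MEF2C (−0.56), FLT3 (−0.51), LAMP5 (−0.31) and ARID1B (0.59). These genes were named after their values were seen. AC004687.2 on the same strand covers 63.7% of the exon bases of SUPT4H1, whose call was lost with total counts only. In the order of these 5 lists the counts were 1, 1, 1, 6 and 4, where 7.60% of all tested genes passed. Leaving out DMSO replicate 2 gave 12, 10, 4, 16 and 8 (27.2% of all genes), and leaving out DMSO replicate 4 gave 1, 0, 0, 3 and 1 (2.97%). Leaving out EZH2i replicate 2 gave 0, 0, 0, 4 and 1 (4.33% of all genes), and a fit of these 2 groups alone 0, 0, 0, 1 and 0 (0.874%). Of the genes sustained by KMT2A fusions 2 passed when DMSO replicate 1 was left out, and 2 when either EZH2i replicate 1 or EZH2i replicate 3 was. The H3K79 and H2B count was 0 without DMSO replicate 3 and without any 1 EZH2i library.

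**Figure D5:**
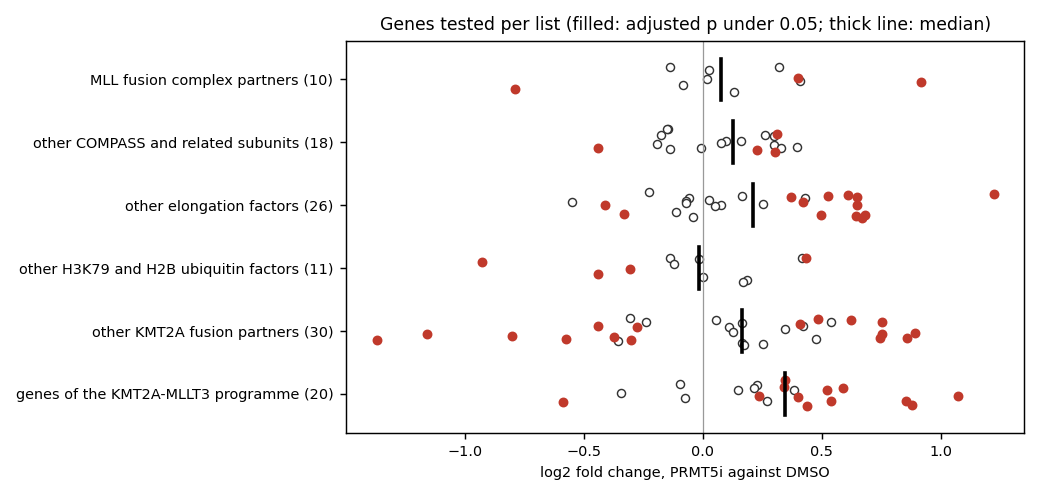
log2 fold change with PRMT5i against DMSO (x axis) of each tested gene of the members and of each list, with filled points where the adjusted p was under 0.05 and the median of each list. The members have a median of 0.08, the elongation factors 0.21 and the genes sustained by KMT2A fusions 0.34.

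The genes whose profile over the 16 libraries was nearest to a member were found by the root mean square difference of centred log2 CPM, among 10121 genes averaging 5 CPM or more. For KMT2A they were WBP11 (0.0782), TCF20 (0.0849) and MAP4 (0.0893), where KMT2A itself varied about its mean by 0.224. WBP11 averaged 83.3 CPM with EZH2i, 67.6 with PRMT5i, 74.3 in the combination and 66.7 with DMSO. For AFF1, the member with the smallest p with PRMT5i, they were PRPF38B (0.0888), GOLPH3L (0.0927) and ZSCAN30 (0.093), where AFF1 varied by 0.435. PRPF38B averaged 45.2 CPM with EZH2i, 73.4 with PRMT5i, 75.0 in the combination and 38.0 with DMSO.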

How the data were processed

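Gene expression was measured by paired-end RNA sequencing in 16 MOLM-13 libraries, 4 per condition. Values are RSEM expected counts for each gene, deposited by the authors in 1 table with no scaling to depth, from reads aligned with STAR 2.5.3 to GRCh38.p7, per the submitters' processing notes. The RSEM version, annotation and strand setting are not given in the sources used here. Library totals ran from 31.1 to 52.9 M.

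Expected counts were rounded, and filterByExpr of edgeR 4.0.16 (R 4.3.3) kept 16555 of 60669 genes. A quasi-likelihood model of 4 group means was fitted to all 16 libraries after TMM scaling, so the comparisons share an estimate of the spread. P-values were adjusted by Benjamini-Hochberg over all tested genes, with a threshold of 0.05. The fit was tested on simulated data with changes in PRMT5i against DMSO. Of 100 genes changed by 1 on the log2 scale 78.0% passed, and of 100 changed by 2, 98.0% did. Alternatives were DESeq2 1.42.0, its size factors, total counts, no filter, a replicate block, a term for replicates 3 and 4, fits of 2 groups, and each library left out. Fits with replicates 1 and 2 only, with replicates 3 and 4 only, and without DMSO replicates 1 and 2 were chosen after seeing the data.

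All 10 members are named, and from each list of related genes up to 4 with the smallest p among those that passed with PRMT5i, and the genes nearest to KMT2A and to the member with the smallest p. The members and lists were chosen with earlier results of these data known. Gene models come from GENCODE release 29 and promoters from RefSeq (GRCh38.p14).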

Additional observations from a re-analysis of the deposited data

Results flagged for a closer look

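In groups of 4 libraries, a library was singled out where its gap to the nearest of the others exceeded Dixon's 95% critical share of the group's range, which chance gives in about 1 in 20 groups. Of the 40 groups of member values 3 met this. AFF1 was low in PRMT5i replicate 1, at 147 CPM, with a gap of 0.900 of the range. PSIP1 was high in PRMT5i replicate 4, at 38.5 CPM, with a gap of 0.844. DOT1L was high in combination replicate 3, at 89.8 CPM, with a gap of 0.848. Without the library concerned, AFF1 still rose (0.96, adjusted p = 4.90e-06) and PSIP1 still fell (−0.83, adjusted p = 0.000271) with PRMT5i against DMSO in edgeR. DOT1L did not pass in edgeR in the fit of all 16 libraries or in that without combination replicate 3, in any of the 6 comparisons.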

How the results depend on the processing

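The number of members that passed in edgeR moved by over 1.5 times from 2 for EZH2i against DMSO (0 with no filter on low counts, 4 in DESeq2, 0 in fits of the 2 groups alone, 0 with replicates 1 and 2 only, 4 without DMSO replicates 1 and 2), from 3 for PRMT5i against DMSO (1 with replicates 1 and 2 only), from 4 for the combination against DMSO (1 with replicates 1 and 2 only), from 0 for the combination against PRMT5i (2 with total counts only, 1 in DESeq2, 4 in fits of the 2 groups alone), from 2 for the combination against EZH2i (0 with replicates 1 and 2 only, 4 without DMSO replicates 1 and 2). With each library left out in turn it ran 0 to 6 for EZH2i against DMSO, 3 to 5 for PRMT5i against DMSO, 3 to 7 for the combination against DMSO, 0 to 1 for the combination against PRMT5i, 2 to 4 for the combination against EZH2i, 0 to 0 for the interaction. Of the 11 member values that passed, 93 of 110 recomputed under the other settings and 167 of 176 with 1 library left out still passed in the same direction, the rest missed the threshold, and 0 and 0 changed sign; the causes were not tested. Signs of members that had not passed turned as follows, in log2. In DESeq2 MLLT1 0.003 (combination vs EZH2i), ELL 0.006 (combination vs EZH2i). With DESeq2 size factors MLLT1 0.003 (combination vs EZH2i), ELL 0.006 (combination vs EZH2i). With no filter on low counts MLLT1 0.004 (combination vs EZH2i), ELL 0.007 (combination vs EZH2i). With total counts only ELL 0.076 (EZH2i vs DMSO), MLLT10 0.114 (combination vs DMSO), ELL 0.103 (combination vs DMSO), MEN1 0.002 (combination vs EZH2i), MLLT1 0.025 (combination vs EZH2i), ELL 0.027 (combination vs EZH2i), MLLT3 −0.021 (interaction). In fits of the 2 groups alone MLLT1 0.003 (combination vs EZH2i), ELL 0.005 (combination vs EZH2i). With replicates 1 and 2 only ELL 0.099 (EZH2i vs DMSO), DOT1L −0.013 (combination vs DMSO), AFF4 0.023 (interaction). With replicates 3 and 4 only KMT2A −0.091 (PRMT5i vs DMSO), DOT1L 0.053 (PRMT5i vs DMSO), MLLT10 0.012 (PRMT5i vs DMSO), MLLT3 −0.067 (PRMT5i vs DMSO), MLLT10 0.064 (combination vs DMSO), ELL 0.031 (combination vs DMSO), MEN1 0.045 (combination vs EZH2i), MLLT1 0.066 (combination vs EZH2i), MLLT3 −0.148 (combination vs EZH2i), ELL 0.157 (combination vs EZH2i), MLLT3 −0.081 (interaction), ELL 0.033 (interaction). Without DMSO replicates 1 and 2 KMT2A −0.087 (PRMT5i vs DMSO), MLLT3 −0.008 (PRMT5i vs DMSO). With 1 library left out, the log2 fold changes that changed sign ran DOT1L −0.401 to 0.252 (PRMT5i vs DMSO), DOT1L −0.106 to 0.549 (combination vs DMSO), ELL −0.086 to 0.067 (EZH2i vs DMSO), ELL −0.099 to 0.043 (combination vs DMSO), ELL −0.084 to 0.069 (combination vs EZH2i), KMT2A −0.116 to 0.091 (PRMT5i vs DMSO), MEN1 −0.127 to 0.043 (combination vs EZH2i), MEN1 −0.061 to 0.063 (combination vs PRMT5i), MLLT1 −0.076 to 0.095 (combination vs EZH2i), MLLT10 −0.043 to 0.012 (combination vs DMSO), MLLT3 −0.037 to 0.069 (PRMT5i vs DMSO), MLLT3 −0.025 to 0.103 (combination vs EZH2i), MLLT3 −0.064 to 0.079 (interaction).

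Same-numbered libraries of different groups had correlations of their deviations from the group means of −0.272 to 0.236 over 24 pairs, 9 of them over 0.1. Between PRMT5i and the combination the same-numbered pairs had 0.206, 0.0258, 0.236 and 0.136, and pairs of different number −0.213 to 0.248. These deviations also hold differences between libraries within a group, so they do not settle whether the numbers pair the libraries. With the replicate number as a block 2, 3 and 4 members passed with EZH2i, PRMT5i and both against DMSO, where 8.64%, 35.9% and 37.0% of all genes did. In that fit AFF4 also passed in the combination against EZH2i (0.26, adjusted p = 0.0275), where 28.6% of all genes did. Over all tested genes the number that passed was 1259 for EZH2i against DMSO (2149 in DESeq2, 135 in fits of the 2 groups alone, 0 with replicates 1 and 2 only, 2418 without DMSO replicates 1 and 2), 5847 for PRMT5i against DMSO (1469 with replicates 1 and 2 only), 5990 for the combination against DMSO (1510 with replicates 1 and 2 only), 688 for the combination against PRMT5i (1064 in DESeq2, 2099 in fits of the 2 groups alone, 1 with replicates 1 and 2 only, 1358 without DMSO replicates 1 and 2), 4633 for the combination against EZH2i (1001 with replicates 1 and 2 only), 48 for the interaction (121 in DESeq2, 0 with replicates 1 and 2 only, 295 with replicates 3 and 4 only, 83 without DMSO replicates 1 and 2). With 1 library left out, that number moved by over 1.5 times in 3 comparisons: for EZH2i against DMSO it was 758 and 728 leaving out EZH2i replicates 1 and 2, 4591, 737 and 499 leaving out DMSO replicates 2, 3 and 4; for the combination against PRMT5i it was 263 and 327 leaving out PRMT5i replicates 3 and 4, 393, 373 and 438 leaving out combination replicates 1, 2 and 4; for the interaction it was 31 leaving out EZH2i replicate 2, 28 and 29 leaving out PRMT5i replicates 3 and 4, 124 leaving out DMSO replicate 2. Scaling to total counts moved the median log2 fold change of all genes by 0.13 in the combination against DMSO; 855 of 1144 genes that passed were then higher with EZH2i against DMSO (681 of 1259 with TMM), 3897 of 5918 in the combination against DMSO (2920 of 5990) and 748 of 869 in the combination against PRMT5i (482 of 688). AFF1 and AFF4 kept their direction against DMSO under this scaling.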
